A study of Mus musculus with 60 samples.

Results

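The salt-inducible kinases Sik1, Sik2 and Sik3 and the genes that lie beside Sik1 on mouse chromosome 17 (Cryaa and U2af1 on one side, Hsf2bp and Rrp1b on the other) were followed in nascent RNA of embryonic stem cells with and without knockdown of Esrrb. These 7 genes, of 24260 with a symbol in the deposited tables, were chosen because Sik1 was one of the 5 viewpoints of the series' 4C experiments, which map the chromosomal contacts of one site; the set was completed with its paralogs and its neighbours. The 7 genes had 11 RefSeq transcripts in the tables, and each gene was represented by the transcript with the highest RPKM summed over the 4 libraries. RPKM is the number of reads scaled by the span of the transcript and by the size of the library, and here the span included the introns.

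All libraries came from E14 mouse embryonic stem cells, an established line grown on gelatin with serum and LIF, and harvested 72 h after lipid transfection of an siRNA. In the siCtrl group (2 libraries) the siRNA was a control, and in the siEsrrb group (2 libraries) it was directed against Esrrb, an orphan nuclear receptor of the naive pluripotency network. RNA was taken from the chromatin pellet, so the values describe RNA still attached to its template more than the mRNA of the cell. The series asked how loss of Esrrb at enhancers affects gene expression; of its 60 samples, the 56 others were not analysed here. An siRNA lowers its target without removing it, and the sequence of the siRNA is not given in the sources used here. The series text exempts nascent RNA from its statement on biological replicates and nothing else says that the libraries of a group came from separate cultures, so a p-value here reflects only how far these particular libraries spread, and that spread may be technical. Where a pair of values is given for a group, replicate 1 comes first and replicate 2 second. Scaled RPKM are the deposited values after a common scaling factor per library, and a log2 fold change is siEsrrb against siCtrl on the log2(scaled RPKM + 0.5) scale. Groups are called apart when both libraries of one lie above both of the other.

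Salt-inducible kinases belong to the AMPK-related family and are switched on when LKB1 (gene Stk11), bound to STRAD and MO25, phosphorylates their activation loop. When cAMP is high, protein kinase A phosphorylates them in turn, 14-3-3 proteins bind, and the kinases no longer hold the CRTC coactivators of CREB and the class IIa histone deacetylases in the cytoplasm. Sik1 is itself a target gene of CREB, which makes it the inducible member of the family, whereas Sik2 and Sik3 are expressed more evenly across tissues.

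The depth behind the RPKM was 24764879 and 68002338 reads for siCtrl and 22363943 and 61857158 reads for siEsrrb. Between 55.1% and 65.1% of these reads lay in the 9758 genes tested, which had a mean of at least 0.5 RPKM. Esrrb, the targeted gene, stood at 3.39 and 3.10 scaled RPKM in siCtrl and at 1.50 and 2.08 in siEsrrb. It was thus lower in both siEsrrb libraries, at 44.2% of control in replicate 1 and 67.0% in replicate 2. The log2 fold change was -0.72 (SE 0.15, adjusted p = 0.281 by limma). These values are of RNA on chromatin, and Esrrb mRNA and protein were not examined here. All 8 stem cell markers (Esrrb among them) were above the minimum, at 1.38 to 23.3 RPKM, and their sum was 109 and 120 RPKM in siCtrl against 96.3 and 100 in siEsrrb; its part in the results was not tested. The markers did not move together: Zfp42 had 17.9 and 17.6 RPKM in siCtrl and 8.05 and 10.8 in siEsrrb, and Pou5f1 11.5 and 15.9 against 18.8 and 16.8. None of 22 markers of fibroblasts, primitive endoderm, trophectoderm, lens and blood reached the minimum; the highest value in any library was 0.334 RPKM, for the collagen gene Col1a1, and the fibroblast marker Lum was at 0 in all libraries. The summed fibroblast markers lay at 0.164 and 0.486 RPKM in siCtrl and at 0.261 and 0.678 in siEsrrb.

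Sequence before annotated start sites is printed for the pair of genes that follow Sik1. Hsf2bp and Rrp1b start 1654 bases apart on opposite strands and face away from each other, and their nascent RNA is compared below. The bases before their starts are shown for that reason, from RefSeq on the build GRCm38.p6 (the deposited values were made on mm9). Each line gives the 250 bases that precede a start site, 5′ to 3′ on the strand of the gene, and capitals mark TGACG or its complement CGTCA, the half-site of the cAMP response element (CRE).
Hsf2bp, chr17:32034509-32034758, minus strand: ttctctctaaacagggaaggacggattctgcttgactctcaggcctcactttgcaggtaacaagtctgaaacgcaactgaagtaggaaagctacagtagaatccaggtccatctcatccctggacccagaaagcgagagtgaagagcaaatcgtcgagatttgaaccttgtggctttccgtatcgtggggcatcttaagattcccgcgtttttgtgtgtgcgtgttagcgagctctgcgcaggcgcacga
Rrp1b, first start, chr17:32035912-32036161, plus strand: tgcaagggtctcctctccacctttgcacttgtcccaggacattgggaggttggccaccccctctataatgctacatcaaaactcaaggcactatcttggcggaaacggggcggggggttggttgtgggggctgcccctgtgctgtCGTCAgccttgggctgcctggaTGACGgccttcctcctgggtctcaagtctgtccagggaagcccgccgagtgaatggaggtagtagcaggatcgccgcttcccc
Rrp1b, second start, chr17:32048035-32048284, plus strand: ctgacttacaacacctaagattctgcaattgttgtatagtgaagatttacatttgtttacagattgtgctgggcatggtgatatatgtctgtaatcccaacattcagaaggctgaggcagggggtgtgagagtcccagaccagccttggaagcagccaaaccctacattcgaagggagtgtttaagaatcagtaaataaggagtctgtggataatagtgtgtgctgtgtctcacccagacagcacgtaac
The stretch before Hsf2bp had 50.4% G and C with 14 CpG, that before the first Rrp1b start 60.4% with 9 CpG, and that before the second Rrp1b start 44.4% with 2 CpG. The first Rrp1b stretch held 2 half-sites, whose first bases lie at -105 and -83 from the start; the other stretches printed held none.

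Windows of 300 bases (250 before and 50 after the start) were searched on both strands for motifs chosen after the sequences had been seen. The ERR half-site AAGGTCA, bound by Esrrb and its relatives, occurred in 4.72% of 32851 RefSeq promoters, and the extended TCAAGGTCA, which contains it, in 0.423%. The full CRE, TGACGTCA, occurred in 1.79% and its half-site TGACG, which lies within it, in 20.8%. Of the 7 genes, 6 had a window in the table; Sik1 had no entry. No member window held an ERR motif or a full CRE. The half-site was found 2 times at Sik2, 3 times at Sik3, 2 times at the first Rrp1b start, 1 time at Cryaa, and 1 time in each of the overlapping U2af1 windows. These are matches of letters only, and no binding data were used here.

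Sik1, the cAMP-inducible kinase of the family, was lower in nascent RNA of both siEsrrb libraries. Its scaled RPKM was 4.45 and 3.69 in siCtrl and 2.75 and 2.49 in siEsrrb, from 1213, 3136, 654 and 1874 reads. Both siEsrrb libraries lay below both siCtrl libraries, and the groups did not overlap. The mean was 4.07 ± 0.536 (SD, n = 2) in siCtrl and 2.62 ± 0.189 (SD, n = 2) in siEsrrb, so that siEsrrb stood at 64.4% of control. In bulk RNA, fewer cells that transcribe the gene and less RNA per cell cannot be told apart.

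By replicate number, Sik1 was at 61.9% of control in replicate 1 (95% counting interval 56.2 to 68.1) and at 67.3% in replicate 2 (63.6 to 71.3). These intervals, exact for the split of reads between the libraries of a pair, cover counting error only; those of the 2 pairs overlap. The log2 fold change was -0.55 (SE 0.12, 95% interval -0.87 to -0.22), and 213 tested genes (2.18%) had a lower one. The unadjusted p was 0.00905 and the Benjamini-Hochberg adjusted p, by limma over all genes, 0.289. In this fit, which has no replicate block, the adjusted threshold of 0.05 was not reached, by Sik1 or by any of the 9758 genes (0%; smallest adjusted p 0.247), while 1098 genes (11.3%) had an unadjusted p under 0.05, 5.33% lower and 5.92% higher. On recovered reads, limma-voom without the block also called 0 genes (1194 at an unadjusted p under 0.05), with Sik1 at -0.62. The voom count, and the call of Sik1 with it, depended on leaving out the block, as given in the closing section. Leaving out 1 library at a time moved the Sik1 value between -0.66 and -0.43.

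**Figure D1:**
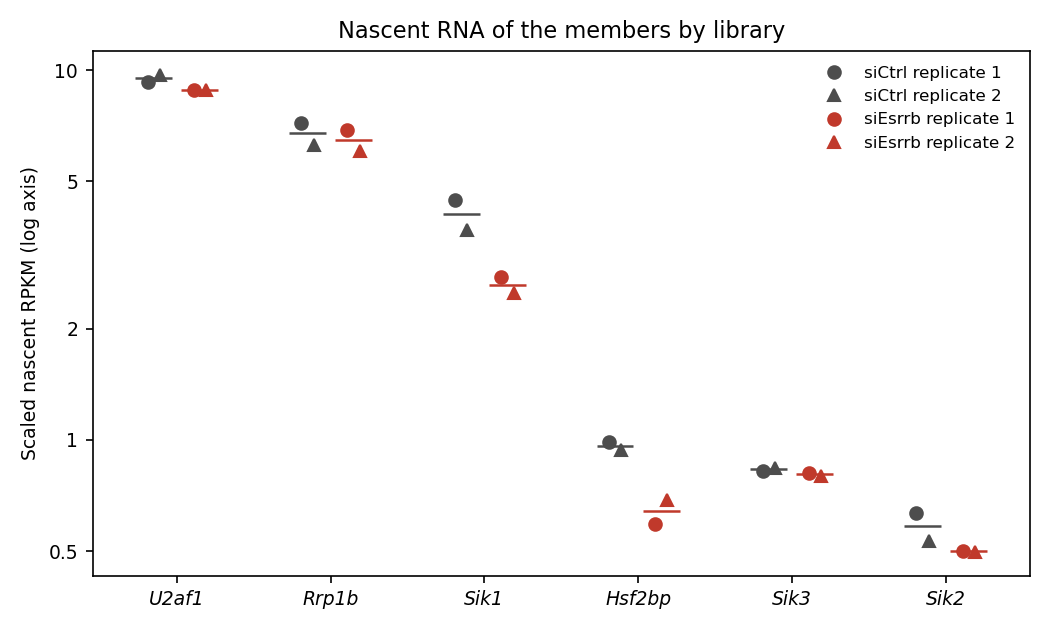
Scaled RPKM (log axis) of the 6 tested members in each of the 4 libraries, with symbols for libraries and horizontal bars for group means. The siEsrrb points of Sik1 (2.75 and 2.49) and Hsf2bp (0.593 and 0.689) lie below both siCtrl points, whereas the points of Rrp1b overlap between the groups.

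The paralogs Sik2 and Sik3, both on chromosome 9, were transcribed at lower levels per length than Sik1 and had smaller fold changes. Sik2, first described in fat tissue, was at 0.634 and 0.533 scaled RPKM in siCtrl and at 0.499 and 0.498 in siEsrrb. Both siEsrrb libraries were below both controls, but siCtrl replicate 2 was close to them. The counts behind these values were 1739, 4561, 1194 and 3778 reads over a span of 116 kb.

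Sik2 stood at 78.8% of control in replicate 1 (73.1 to 84.9) and at 93.3% in replicate 2 (89.4 to 97.5), counting intervals that do not overlap. Its log2 fold change was -0.12 (SE 0.09, 95% interval -0.36 to 0.13, adjusted p = 0.68 by limma). Without siCtrl replicate 1 the value was -0.05, and on recovered reads with voom, which adds no pseudocount of 0.5 RPKM, it was -0.21. Of the tested genes, 20.6% had a lower fold change than Sik2.

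Sik3, a kinase with roles in sleep need and in cartilage growth, was nearly level across the libraries. Its scaled RPKM was 0.824 and 0.840 in siCtrl and 0.813 and 0.800 in siEsrrb, from 3535 to 13057 reads over 211 kb. Both siEsrrb values were the lower ones, by a small margin. The ratio to control was 98.7% in replicate 1 (94.3 to 103) and 95.2% in replicate 2 (92.8 to 97.6), and the log2 fold change -0.03 (SE 0.06, 95% interval -0.20 to 0.15, adjusted p = 0.901 by limma).

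Among the other members, Hsf2bp had the log2 fold change nearest to that of Sik1. Hsf2bp encodes a germ cell protein that binds the heat shock factor HSF2 and BRCA2 and is needed in meiotic recombination. Its scaled RPKM was 0.989 and 0.939 in siCtrl and 0.593 and 0.689 in siEsrrb, from 2094, 6200, 1094 and 4036 reads over 89.7 kb. The siEsrrb libraries lay below both siCtrl libraries, and no value fell between the groups. The means were 0.964 ± 0.0348 (SD, n = 2) and 0.641 ± 0.0681 (SD, n = 2).

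Hsf2bp was at 60.0% of control in replicate 1 (55.7 to 64.5) and at 73.4% in replicate 2 (70.5 to 76.3), a gap between pairs beyond counting error. Its log2 fold change was -0.36 (SE 0.08, 95% interval -0.58 to -0.14; unadjusted p = 0.00945, adjusted p = 0.293 by limma), and 4.29% of tested genes had a lower one. With voom on recovered reads the value was -0.57 (adjusted p = 0.147). At under 1 RPKM the pseudocount compresses the fold change of Hsf2bp more than that of Sik1.

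U2af1, the small subunit of the splicing factor that recognises the 3′ splice site, had the highest level of the set. It was at 9.28 and 9.72 scaled RPKM in siCtrl and at 8.83 and 8.84 in siEsrrb. The siEsrrb libraries were lower than both controls, at 95.2% of control in replicate 1 (89.8 to 101) and 91.0% in replicate 2 (88.1 to 93.9). The log2 fold change was -0.10 (SE 0.10, 95% interval -0.37 to 0.17, adjusted p = 0.761 by limma). Its 2 RefSeq transcripts had identical values.

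Rrp1b, a nucleolar protein of ribosome biogenesis that also associates with chromatin, did not separate the groups. The span of its shorter transcript had the higher RPKM, with 7.21 and 6.27 scaled RPKM in siCtrl and 6.90 and 6.04 in siEsrrb. The longer transcript covers that span too, so its reads cannot be assigned to either transcript. The replicate 1 libraries were the higher ones in both groups, and the groups overlapped. The ratio to control was 95.7% in replicate 1 (90.2 to 101) and 96.4% in replicate 2 (93.0 to 99.8), and the log2 fold change -0.05 (SE 0.13, 95% interval -0.40 to 0.29, adjusted p = 0.902 by limma). The sign turned without siCtrl replicate 1 (0.04) and without siEsrrb replicate 2 (0.03).

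The longer Rrp1b transcript starts at the first of the starts printed above and spans 26.7 kb, the shorter one 14.6 kb from the second start. Subtracting their reads gave the 12.1 kb that only the longer transcript covers, nearest to Hsf2bp, with 1600, 4362, 1264 and 3457 reads. That first stretch was at 5.59 and 4.89 scaled RPKM in siCtrl and at 5.07 and 4.37 in siEsrrb. The groups again overlapped, with ratios of 90.7% and 89.3% of control by replicate number. Hsf2bp, which starts 1654 bases away, was at 60.0% and 73.4%; the difference between these ratios was not tested by itself.

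Cryaa, the lens crystallin alpha A and the gene nearest to Sik1 on its other side, gave almost no reads. There were 1 and 2 reads in siCtrl and none in either siEsrrb library. A floor of 3 reads corresponds to 0.0319 and 0.0116 RPKM in the siCtrl libraries and to 0.0353 and 0.0128 RPKM in the siEsrrb libraries. Both groups were under that floor, so no fold was computed, and a difference was not detectable with so few reads. The 4 other lens markers summed to 0.145 to 0.263 RPKM per library.

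**Figure D2:**
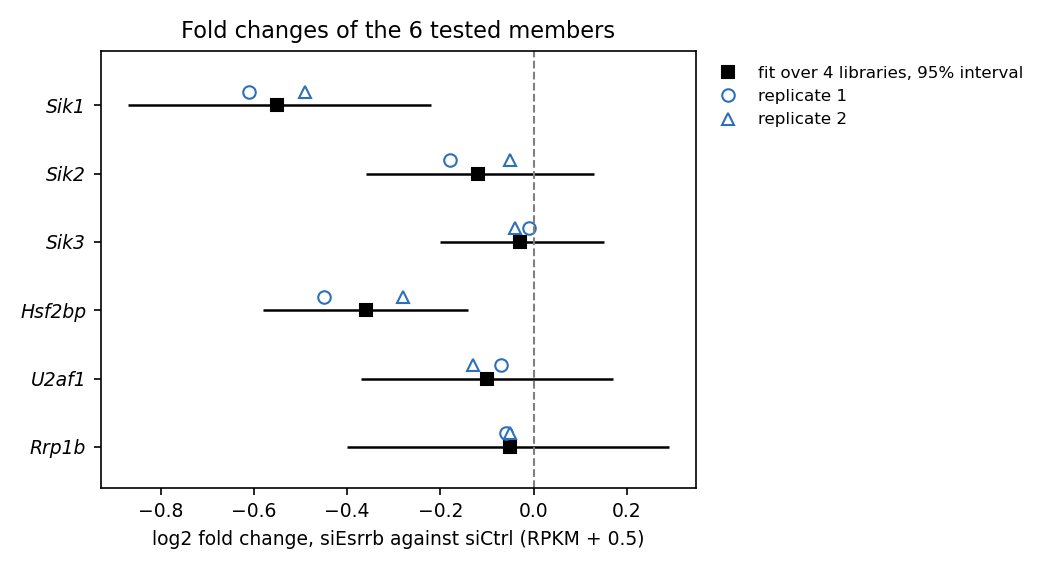
Log2 fold change (siEsrrb against siCtrl) of the 6 tested members on the log2(scaled RPKM + 0.5) scale, with squares and bars for the limma fit and its 95% interval and open symbols for each replicate number. The intervals of Sik1 (-0.87 to -0.22) and Hsf2bp (-0.58 to -0.14) lie below 0, and those of Sik2, Sik3, U2af1 and Rrp1b include it.

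In the siCtrl libraries the level per length fell in the order U2af1, Rrp1b, Sik1, Hsf2bp, Sik3, Sik2 and Cryaa, and no neighbours in that order had overlapping values. In the siEsrrb libraries Sik3 (0.813 and 0.800 scaled RPKM) stood above Hsf2bp (0.593 and 0.689), and the rest of the order was as in siCtrl. Over the 6 tested members the median log2 fold change was -0.11, against -0.001 over all tested genes. The groups were apart, with siEsrrb lower, for 5 of the 6, and for none with siEsrrb higher; among all tested genes 43.8% were apart, 22.0% lower and 21.8% higher. An unadjusted p under 0.05 was reached by 2 of 6, Sik1 and Hsf2bp, both lower, beside 5.33% lower among all tested genes.

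Whether the difference of Sik1 departs from that of the other members was tested on the difference of their log2 values within each library. With 6 ways to split 4 libraries evenly, the two-sided exact permutation test has 0.33 as its smallest p and cannot reach 0.05; 5 gene pairs were compared. Against Rrp1b, log2 Sik1 minus log2 Rrp1b was -0.64 and -0.69 in siCtrl and -1.19 and -1.13 in siEsrrb. The siEsrrb values were lower (difference -0.49, SE 0.04, the smallest SE of the 5 pairs and from 2 libraries per group). The exact permutation p was 0.33, the value that any pair of genes without overlap between the groups receives.

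The same held in direction against U2af1 (-0.45, SE 0.16), Sik2 (-0.43, SE 0.08) and Sik3 (-0.52, SE 0.14), each with both siEsrrb libraries below both controls and an exact permutation p of 0.33. Against Hsf2bp the within-library difference was 1.73 and 1.54 in siCtrl and 1.57 and 1.33 in siEsrrb. Here the groups overlapped, and the difference of -0.19 (SE 0.16, exact permutation p = 0.667) was close to its error. Leaving out 1 library moved it between -0.31 (without siEsrrb replicate 1) and -0.07 (without siEsrrb replicate 2); it was -0.28 without siCtrl replicate 2 and -0.09 without siCtrl replicate 1. On recovered reads with voom the fold changes of Sik1 (-0.62, SE 0.13) and Hsf2bp (-0.57, SE 0.11) lay closer still.

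The wider neighbourhood, the 10 annotated genes with a row on each side of Sik1, held 12 tested genes. Lower siEsrrb libraries without overlap were seen in 4 of 12 (U2af1, Hsf2bp, Pknox1 and Akap8l), higher ones in 1 of 12 (Notch3), and overlap in 7, beside 22.0% apart lower and 21.8% apart higher among all tested genes; the median log2 fold change was -0.04. None passed the adjusted test by limma or by voom, each without a replicate block. Of the 12, 2 (Hsf2bp and Notch3) had an unadjusted p under 0.05, against 11.3% of all tested genes, a share near that background. Notch3, a receptor of the Notch family at place 4 on the Hsf2bp side, had the opposite sign: 1.83 and 2.32 scaled RPKM in siCtrl, 2.80 and 3.14 in siEsrrb. Every siEsrrb value was above every siCtrl value, with a log2 fold change of 0.44 (SE 0.13, adjusted p = 0.393 by limma).

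Pknox1, a homeobox partner of PBX proteins, had a log2 fold change of -0.06 (SE 0.07), and Akap8l, a nuclear anchoring protein, -0.07 (SE 0.08). The 7 overlapping genes included Rrp1b, and among the rest were Akap8 (-0.03), Ndufv3 (-0.02), Wdr4 (0.01), Slc37a1 (0.05) and Wiz (0.13). Of the 8 untested neighbours, Cbs was picked out after its values were seen. This enzyme of homocysteine metabolism, at place 3 on the Cryaa side, was at 0.514 and 0.629 scaled RPKM in siCtrl and at 0.332 and 0.352 in siEsrrb. It lay apart, siEsrrb lower, and a fit without the minimum gave -0.35 (SE 0.09, adjusted p = 0.458 by limma).

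**Figure D3:**
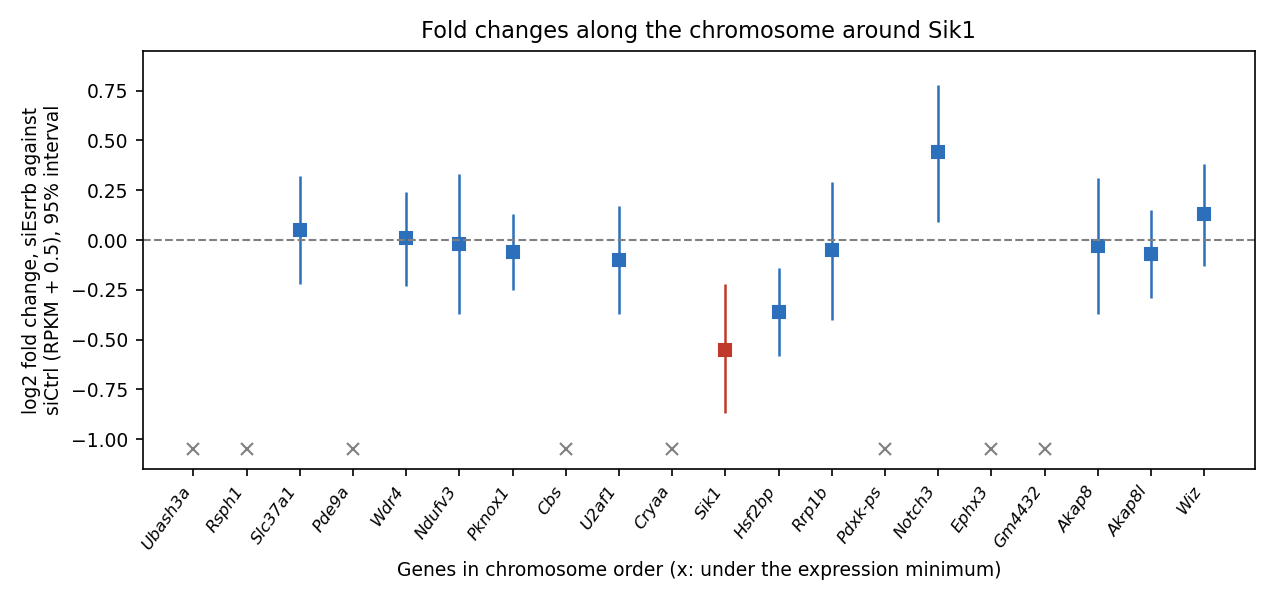
Log2 fold change (siEsrrb against siCtrl, bars for the 95% interval) of the tested genes among the 10 on each side of Sik1, placed by gene order and not by distance; crosses mark the 8 genes under the minimum, and 1 tested gene is not shown. Sik1 (-0.55) and Hsf2bp (-0.36) are the lowest points, Notch3 (0.44) is the highest, and the other genes plotted lie between -0.10 and 0.13.

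Genes that act with the kinases were read from 4 lists with 38 tested genes between them. None passed the adjusted test by limma or by voom, each without a replicate block, and the list medians ran from -0.08 to -0.03. An unadjusted p under 0.05 was found for 3 of the 38 (Ywhah, Brsk1 and Nr4a1), no larger a share than the 11.3% of all tested genes, so that count is no result about the lists. Of the activators and regulators (LKB1 complex, protein kinase A, 14-3-3), 13 of 17 were tested, 5 were apart with siEsrrb lower and 1 with siEsrrb higher, beside 22.0% and 21.8% of all tested genes. Stk11, the LKB1 kinase itself, was at 5.43, 4.85, 5.38 and 4.77 scaled RPKM (siCtrl, then siEsrrb), with a log2 fold change of -0.02 (SE 0.11) and overlapping groups.

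The 14-3-3 genes differed in sign. Ywhah had 2.10 and 2.11 scaled RPKM in siCtrl and 2.59 and 2.41 in siEsrrb (0.20, SE 0.07, adjusted p = 0.438). Ywhae had -0.16 (SE 0.09), Ywhaq -0.14 (SE 0.09) and Ywhag 0.01 (SE 0.16). The regulatory subunit of protein kinase A with the largest difference, Prkar2a, was at -0.22 (SE 0.13).

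Of the AMPK-related kinases other than the SIKs, 8 of 12 were tested, and 3 were apart, each with siEsrrb lower (22.0% of all tested genes). Brsk1, a kinase of neuronal polarity, was at 1.88 and 1.84 scaled RPKM in siCtrl and at 1.55 and 1.59 in siEsrrb. Its groups were apart, with a log2 fold change of -0.19 (SE 0.06, adjusted p = 0.412). The microtubule affinity kinases Mark2 (-0.09, SE 0.10) and Mark3 (-0.10, SE 0.08) and the mitotic kinase Melk (-0.07, SE 0.08) differed by little more than their errors or less.

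Substrates of the kinases and the partners of those substrates had 10 of 14 genes tested, with 1 apart lower and 2 apart higher (22.0% and 21.8% of all tested genes). Crtc2, the CREB coactivator that SIKs keep in the cytoplasm, was at 3.16 and 2.86 scaled RPKM in siCtrl and at 2.70 and 2.66 in siEsrrb (-0.14, SE 0.08, adjusted p = 0.593). The class IIa deacetylase Hdac4 had -0.04 (SE 0.11), the CREB relative Atf1 -0.05 (SE 0.11) and the transcription factor Mef2d 0.27 (SE 0.21), and the groups of all 3 overlapped.

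Response genes of cAMP and CREB, the class to which Sik1 belongs, had 8 of 18 tested, 2 apart lower and none apart higher, again beside 22.0% and 21.8% of all tested genes. Nr4a1, an orphan nuclear receptor, was at 2.11 and 2.03 scaled RPKM in siCtrl and at 1.63 and 1.66 in siEsrrb. The groups were apart, with a log2 fold change of -0.26 (SE 0.06; unadjusted p = 0.0136, adjusted p = 0.33 by limma). The immediate early genes Egr1 (-0.12, SE 0.22) and Junb (0.20, SE 0.17) overlapped between groups, as did the phosphatase gene Dusp1 (-0.0015, SE 0.11) and the clock gene Per1 (0.06, SE 0.11). Among these response genes no fold change was as low as that of Sik1, since the list ran from -0.26 to 0.20.

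**Figure D4:**
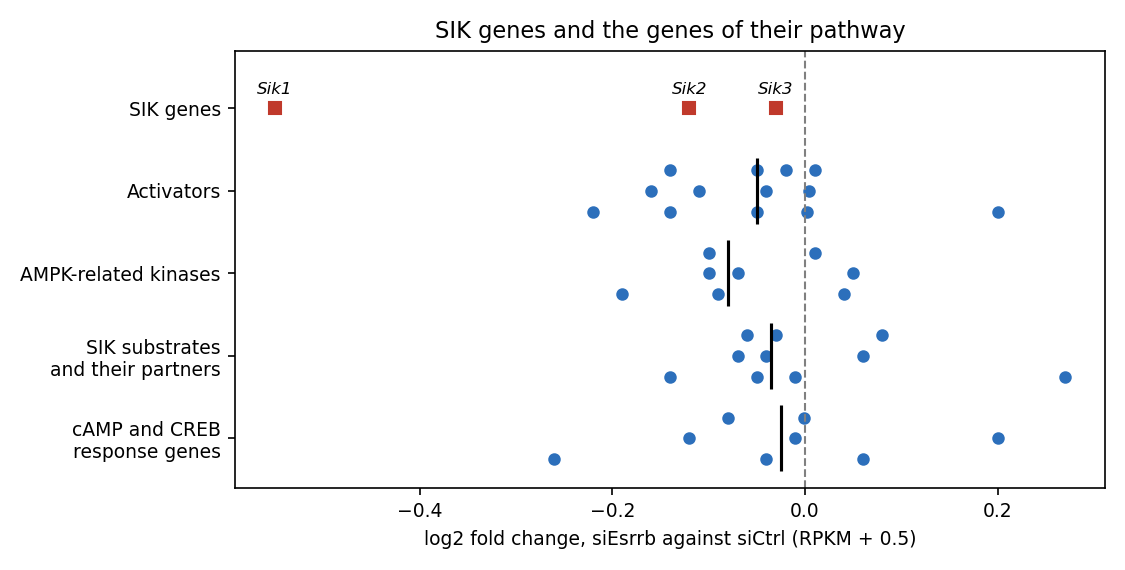
Log2 fold change (siEsrrb against siCtrl) of the tested genes of the 4 pathway lists, 1 point per gene and a black bar for each list's median, with the 3 salt-inducible kinases as squares. Points of the lists lie between -0.26 and 0.27, and Sik1 (-0.55) lies below all of them.

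Likeness to Sik1 was ranked by Euclidean distance over the 4 log2 values of each gene, centred on the mean of that gene. The ranking held 6131 protein-coding genes with a mean of at least 1 RPKM. Provisional names, such as those ending in Rik, were left out. Sik1 had centred values of 0.39 and 0.15 in siCtrl and of -0.21 and -0.34 in siEsrrb. The 5 nearest were Hsd17b14 (distance 0.0291, chromosome 7), Rai14 (0.0382, chromosome 15), Slc6a8 (0.0420, chromosome X), Slc7a1 (0.0498, chromosome 5) and N4bp3 (0.0753, chromosome 11). None lies on chromosome 17. Their log2 fold changes ran from -0.56 to -0.48.

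Hsd17b14 is a steroid dehydrogenase, Slc6a8 carries creatine and Slc7a1 carries cationic amino acids into the cell. Hsf2bp, whose level is under the minimum of that ranking, would take place 126 at a distance of 0.289. Its centred values were 0.20 and 0.16 in siCtrl and -0.24 and -0.12 in siEsrrb, so the library that was lowest for Sik1 (siEsrrb replicate 2) was not the lowest for Hsf2bp. With only 4 libraries such likeness is a description.

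**Figure D5:**
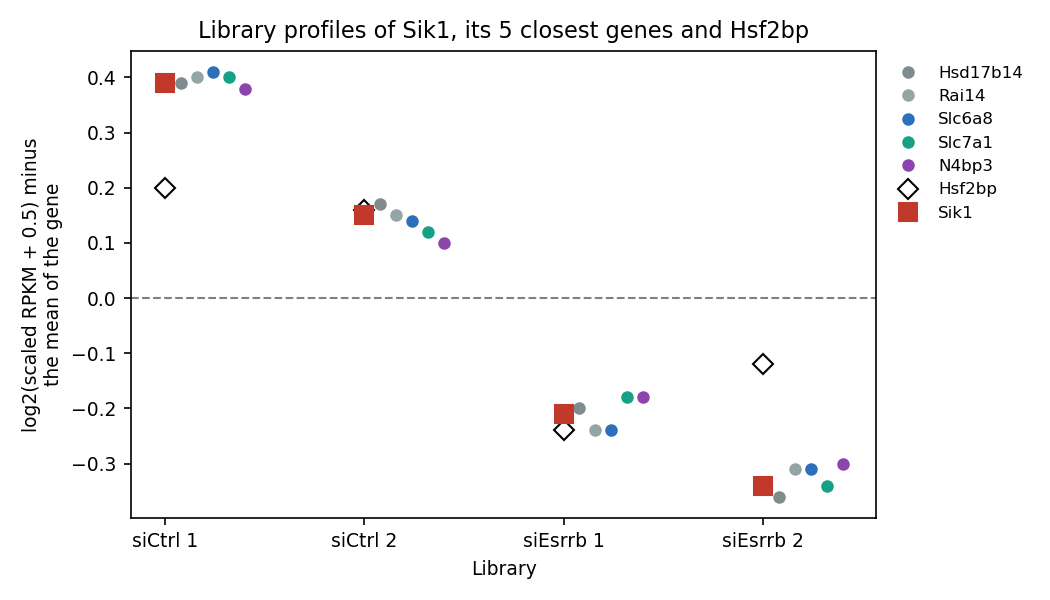
Centred log2(scaled RPKM + 0.5) in the 4 libraries for Sik1, the 5 genes nearest to it and Hsf2bp, with 1 symbol per gene. The 5 nearest genes follow Sik1 from 0.39 in siCtrl replicate 1 to -0.34 in siEsrrb replicate 2, while Hsf2bp is lowest in siEsrrb replicate 1 (-0.24).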

How the data were processed

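Chromatin-associated RNA of 4 libraries (siCtrl and siEsrrb, 2 each) was read with a stranded kit after ribosomal depletion, per the labels' protocols. The authors deposited RPKM per RefSeq transcript (34929 transcripts). Per the submitters' processing notes, CASAVA 1.4, TopHat2 and mm9 were used, and Bowtie 1.1.1 and Bowtie2 besides for replicate 1. Not given in the sources used here were the counting program and its use of strand, so reads of overlapping or antisense genes cannot be told apart. A series table equalled replicate 1 at all 34929 transcripts and was not used further. Symbols were matched for 34631 transcripts.

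RPKM were multiplied by median-of-ratios factors, and log2(RPKM + 0.5) was tested over 9758 genes (mean RPKM at least 0.5) with limma 3.58.1 in R 4.3.3 (eBayes with trend, no block, Benjamini-Hochberg adjustment, two-sided, threshold 0.05). Fold changes are on the log2(RPKM + 0.5) scale, which understates those of low genes, and percentages of control use no pseudocount. Whole reads were recovered from RPKM (31754 of 31771 transcripts, 99.946%, within 0.001 of a read) for depths, intervals and a limma-voom alternative. In that alternative 0 genes passed the adjusted test without a replicate block and 2417 with it. Scripts were tested on simulated data.

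Both groups share replicate numbers only through titles in which replicate 1 carries no number. The members and lists were chosen with earlier results of these data known. Named besides the members were the tested neighbours of Sik1 (1 is not reported here), the 4 highest genes and the 2 with the largest differences of each pathway list, and the 5 genes nearest to Sik1; Cbs was added after its values were seen. Alternatives were other scalings, pseudocounts, minimums and transcripts, voom, a replicate block and each library left out.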

Additional observations from a re-analysis of the deposited data

How the results depend on the processing

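Each tested member kept its direction under all alternatives run, except Rrp1b, which turned to 0.04 without siCtrl replicate 1 and to 0.03 without siEsrrb replicate 2 (-0.15 to 0.04 over the libraries left out). Over all alternatives Sik1 ranged from -0.66 to -0.43, Hsf2bp from -0.57 to -0.26, Sik2 from -0.21 to -0.05, Sik3 from -0.06 to -0.02 and U2af1 from -0.14 to -0.07. The differences of Sik1 from the 5 other members kept their sign in every alternative with a value. Without 1 library, 0 to 6 genes passed the adjusted test by limma (0 with all 4, where 1098 had an unadjusted p under 0.05; 2 without siCtrl replicate 1, 6 without siEsrrb replicate 2). At a mean of at least 2 RPKM, Sik2, Sik3 and Hsf2bp had no value, and Cryaa had no fold in any setting.

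The labels do not say that a number pairs the libraries, whose deviations correlated at r = 0.39 over genes. With a replicate block alone, 0 genes passed (2557 at an unadjusted p under 0.05), and the adjusted p was 0.102 for Sik1 and 0.119 for Hsf2bp. With voom on recovered reads and the block, 2417 of 9752 tested genes passed. The pathway and neighbourhood lists hold 80 genes, of which 38 pathway genes and 12 neighbours reached the minimum RPKM and were tested. Of the tested list genes 9 passed, no larger a share than among all tested genes. In that fit Sik1 was at -0.61 (adjusted p = 7.1e-06), Hsf2bp at -0.57 (2.19e-05) and Sik2 at -0.20 (0.0374). With the block and at least 20 reads per library, an alternative chosen after seeing the data, 1845 of 9142 tested genes passed by limma. Of the same list genes 7 passed, again no larger a share than among all tested genes. Here Sik1 was at -0.55 (adjusted p = 0.00181) and Hsf2bp at -0.36 (0.00772). The cause was not tested. The block changed no other call among the members. Cryaa, with 1 and 2 reads in siCtrl and none in siEsrrb, had too few reads for a comparison.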
